A study of Mus musculus with 12 samples.

Results

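The synaptic vesicle and SNARE genes described here are 9 genes of the presynaptic release machinery and its scaffold, Snap25, Vamp2, Stx1a, Syt1, Syp, Sv2a, Syn1, Syn2 and Dlg4, out of 24570 named genes measured. They were chosen by name, as genes for proteins that have been reported as lost in the diabetic retina, with Dlg4 as a scaffold marker, and each had 1 row in the table. RNA of the whole retina was measured on 1 array per sample in 6 diabetic male C57BL/6J mice and 6 normoglycaemic male controls of that strain. The diabetic mice had received streptozotocin, a toxin of the insulin-producing beta cells, at 160 mg/kg into the peritoneum, and had a blood glucose above 15 mM at 7 days, whereas the controls are labelled as having had none. Retinas were taken at 6 weeks. The labels give an age of 8 weeks at injection and the series text gives 6 weeks for the diabetic mice, so age and duration of diabetes are not settled. The diabetes is that of a beta-cell toxin, and whether the controls received an injection of vehicle is not stated in the labels. The label numbers of the mice do not overlap between the groups, and a cohort or day behind them cannot be told apart from diabetes. The samples are labelled as biological replicates.

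Transmitter leaves a nerve terminal when a vesicle SNARE, the product of Vamp2, zips together with the SNAREs of the plasma membrane, made from Stx1a and Snap25, and calcium binding to synaptotagmin 1 (Syt1) triggers the fusion. Synaptophysin (Syp) and SV2A sit in the vesicle membrane, and the synapsins (Syn1, Syn2) tether vesicles to each other and to actin. The retina holds both ribbon synapses, in photoreceptors and bipolar cells, which lack synapsins and use syntaxin 3 in place of syntaxin 1, and conventional synapses, made mostly by amacrine cells, which hold synapsins and syntaxin 1. Dlg4 encodes PSD-95, a postsynaptic scaffold in the brain, which in the mouse retina also lies in photoreceptor terminals.

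Of the 9 genes, 1 passed the test between diabetic and control retinas, and it was the scaffold gene Dlg4, which was lower in diabetic retinas by 0.20 ± 0.04 on the log2 scale (SE). The 8 genes of the vesicle and of the SNARE complex did not pass, with changes between -0.17 (Syn1) and 0.02 (Stx1a). The test was limma's across all genes with Benjamini-Hochberg adjustment and a threshold of 0.05, which called 3.24% of all genes, 1.77% as lower and 1.47% as higher, so a count of 1 in 9 is not read as a result about the group. At an unadjusted p under 0.05 (limma) the count was also 1 of 9, against 21.0% of all genes. All 9 genes had a mean at or above the median level. Among the 12285 genes of that level, 5.13% were called (2.74% lower, 2.39% higher) and 3407 had an unadjusted p under 0.05. The groups did not overlap for 0 of the 9 genes, against 2.84% of all genes (1.62% with every diabetic array lower, 1.22% with every one higher). The median change of the 9 genes was -0.01, against -0.0018 over all genes tested. Values are log2 RMA values, in which each unit is a doubling of the signal, and the level of one gene was not set against that of another. In whole tissue, fewer cells of a type and less RNA per cell cannot be told apart.

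For Dlg4, the gene that passed the test, the 250 bases before starts 1 and 3 of its 3 annotated starts are shown (GRCm38.p6, chromosome 11, plus strand; chr11:70016953-70017202 and chr11:70023732-70023981). For Syn1 and Syn2, which deviated together between animals, the same stretch is shown for Syn1 (minus strand, chrX:20920919-20921168) and for start 1 of Syn2 (plus strand, chr6:115134652-115134901). Sequences are from RefSeq and run from 5′ to 3′ up to the base before the start, with matches to the searched motifs in capitals.
Dlg4, start 1: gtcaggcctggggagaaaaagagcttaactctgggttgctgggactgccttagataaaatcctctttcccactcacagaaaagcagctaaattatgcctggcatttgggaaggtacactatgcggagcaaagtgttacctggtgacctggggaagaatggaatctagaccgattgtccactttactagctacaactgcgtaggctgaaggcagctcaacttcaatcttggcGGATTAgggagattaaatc
Dlg4, start 3: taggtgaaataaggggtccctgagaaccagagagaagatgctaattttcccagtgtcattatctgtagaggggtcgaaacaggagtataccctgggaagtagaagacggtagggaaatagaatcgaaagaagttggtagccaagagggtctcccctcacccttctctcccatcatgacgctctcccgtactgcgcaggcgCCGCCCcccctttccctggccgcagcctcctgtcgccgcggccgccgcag
Syn1: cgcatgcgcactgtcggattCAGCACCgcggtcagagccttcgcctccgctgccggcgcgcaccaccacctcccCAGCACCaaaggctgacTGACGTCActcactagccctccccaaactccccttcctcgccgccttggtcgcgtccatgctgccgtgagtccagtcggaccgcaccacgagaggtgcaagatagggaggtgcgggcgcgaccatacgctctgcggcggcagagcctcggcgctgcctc
Syn2, start 1: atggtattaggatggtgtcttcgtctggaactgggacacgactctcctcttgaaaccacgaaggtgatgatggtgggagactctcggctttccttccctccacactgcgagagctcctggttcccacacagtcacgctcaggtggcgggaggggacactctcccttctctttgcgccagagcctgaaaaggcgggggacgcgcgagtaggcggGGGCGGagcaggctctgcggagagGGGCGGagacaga
Capitals mark any of 6 motifs on either strand. These were the GC box GGGCGG (found in 32.7% of all 32851 RefSeq promoter windows of this length), the cyclic AMP response element TGACGTCA (1.55%), the left arm CAGCACC (5.73%) and the right arm GGACAGC (5.28%) of the site of the neuronal repressor REST, the EGR1 site GCGTGGGCG (0.536%) and TAATCC, a site of the photoreceptor factor CRX (6.25%). No overlap between different motifs occurred in the windows shown. The Syn1 window held 2 matches to the left arm of the REST site, beginning 230 and 176 bases before the start, and 1 cyclic AMP response element 159 bases before it. The Dlg4 window of start 1 held 1 TAATCC on the minus strand, 19 bases before the start, and that of start 3 held 1 GC box on the minus strand at 50 bases. The Syn2 window held 2 GC boxes, at 37 and 13 bases. The windows of Dlg4 start 2 and of Syn2 start 2 were searched as well, held none of the 6 motifs and are not shown. Of the 9 genes, 7 had windows in the RefSeq table, 11 windows in all. A match describes the letters of a window and not binding.

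Among the SNAREs, Snap25 (Entrez gene 20614), the plasma membrane SNARE that lends a pair of helices to the complex, ran from 12.91 through a median of 13.12 to 13.16 in diabetic retinas, against 13.04, 13.10 and 13.16 in control retinas. The groups overlapped fully, and diabetic replicate 5 lay below all other arrays. Its change was -0.0016 ± 0.04 (SE, n = 6 each), with a 95% interval from -0.09 to 0.09 and an adjusted p of 0.989 (limma). Snap25 held places 11 to 20 from the top of the table in diabetic retinas and places 11 to 15 in control retinas. All arrays carry the same sorted values, so its 12 values moved in steps between neighbouring places, with 3 distinct values among diabetic and 4 among control retinas.

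Vamp2 (Entrez gene 22318), which encodes the vesicle SNARE synaptobrevin 2, had 10.22, a median of 10.36 and 10.51 in diabetic retinas, against 10.35, 10.40 and 10.75 in control retinas. The groups overlapped, and the highest value was that of control replicate 5, far above the other controls, which lay between 10.35 and 10.42. The change was -0.08 ± 0.07 (95% interval -0.23 to 0.08; adjusted p = 0.585), and -0.02 without control replicate 5.

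Stx1a (Entrez gene 20907), the syntaxin of conventional synapses, lay near the array median of 5.73 on every array. It had 5.74, a median of 5.78 and 5.93 in diabetic retinas, against 5.62, 5.81 and 5.84 in control retinas, and the groups overlapped. The change was 0.02 ± 0.04 (95% interval -0.07 to 0.11; adjusted p = 0.830). At this dim level a missing call does not show that the gene was unchanged.

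The calcium sensor gene Syt1 (Entrez gene 20979) varied least among the 9 genes between animals. It ran from 12.60 through 12.68 to 12.74 in diabetic retinas, against 12.63, 12.67 and 12.76 in control retinas. The groups lay on top of each other, with a change of -0.01 ± 0.03 (95% interval -0.07 to 0.05; adjusted p = 0.844). Like Snap25, it stood near the top of the table, at places 26 to 32 in diabetic and 25 to 31 in control retinas.

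Of the vesicle membrane proteins, Syp (Entrez gene 20977) is the classical marker of synaptic vesicles. Its lowest, median and highest values were 11.60, 11.72 and 11.77 in diabetic retinas, against 11.60, 11.71 and 11.81 in control retinas. The lowest values of both groups were the same, and the change was 0.01 ± 0.04 (95% interval -0.08 to 0.10; adjusted p = 0.951). Sv2a (Entrez gene 64051), which encodes the vesicle glycoprotein bound by the drug levetiracetam, had 9.72, 9.86 and 10.01 in diabetic retinas, against 9.67, 9.81 and 10.14 in control retinas. Control replicate 3 was highest and control replicate 6 lowest, so that the controls spanned all diabetic values. The change was 0.02 ± 0.08 (95% interval -0.15 to 0.19; adjusted p = 0.920).

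The synapsins had the lowest changes among the vesicle genes without passing the test. Syn1 (Entrez gene 20964) had 8.68, a median of 8.78 and 9.03 in diabetic retinas, against 8.70, 9.03 and 9.20 in control retinas. Of the diabetic arrays, replicates 1 and 3 stood near 9.0 and the other 4 between 8.68 and 8.78, while control replicate 1 lay at 8.70, among the lowest of all. The change was -0.17 ± 0.09 (95% interval -0.37 to 0.04; adjusted p = 0.339), and -0.23 without control replicate 1 (adjusted p = 0.164). Syn2 (Entrez gene 20965) had 7.91, a median of 8.05 and 8.38 in diabetic retinas, against 8.01, 8.18 and 8.34 in control retinas. Diabetic replicate 3 was the highest of all arrays and diabetic replicates 2 and 6 the lowest. The change was -0.13 ± 0.08 (95% interval -0.31 to 0.05; adjusted p = 0.388), and -0.19 without diabetic replicate 3 (adjusted p = 0.146).

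**Figure D1:**
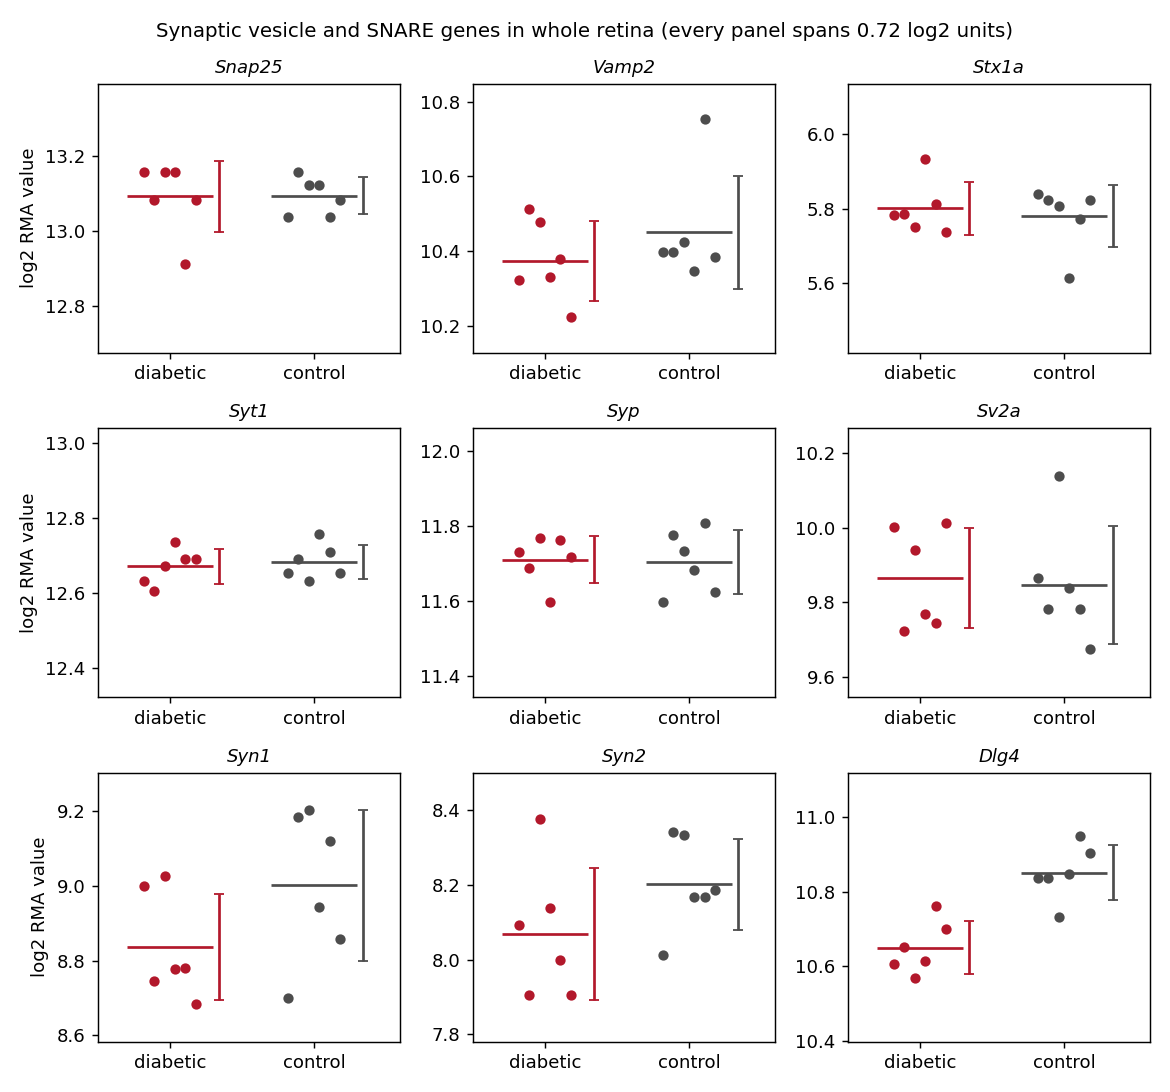
Log2 RMA values of the 9 genes on every array, diabetic retinas in red at the left and control retinas in grey at the right of each panel (points, 6 arrays each; line, mean; bar, SD). In the Dlg4 panel the diabetic values, 10.57 to 10.76, lie below all but 1 of the control values, 10.73 to 10.95, while the groups overlap widely for the other 8 genes.

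Dlg4 (Entrez gene 13385), whose product PSD-95 anchors receptors and channels through PDZ domains, was the gene of the 9 that passed the test. Diabetic retinas had 10.61, 10.65, 10.57, 10.62, 10.76 and 10.70 in replicates 1 to 6, against 10.84, 10.84, 10.73, 10.85, 10.95 and 10.90 in control retinas. The groups overlapped by a single pair of arrays, since diabetic replicate 5 lay above control replicate 3, and every other diabetic array lay below every control array. The means were 10.65 ± 0.07 in diabetic and 10.85 ± 0.07 in control retinas (SD, n = 6 each). Dlg4 fell by 0.20 ± 0.04 on the log2 scale, which is 1.15-fold lower (95% interval -0.29 to -0.11; adjusted p = 0.0255, limma). A two-sided exact permutation test of the same difference gave an unadjusted p = 0.00433, where the smallest that the 924 relabelings allow is 0.00216. It uses the same values as the limma test and is not separate support. Among the 435 genes that were called lower, 208 fell by more than Dlg4, and the median size of all called changes was 0.19.

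The call of Dlg4 depended on single arrays. It held in 8 of the 12 fits that left out 1 array, with changes from -0.22 to -0.18. The adjusted p was 0.0509 without control replicate 6, 0.0511 without diabetic replicate 1, 0.0539 without diabetic replicate 3 and 0.0562 without diabetic replicate 4. In that order the changes were -0.19, -0.19, -0.18 and -0.19. These 4 fits called 428, 428, 339 and 325 of all genes, against 797 with every array, so calls were lost for other genes as well.

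Marker means of cones and horizontal cells were lower in diabetic retinas, while that of rods differed by 0.005. The mean of 7 rod markers ran from 12.80 to 12.87 in diabetic retinas, against 12.80 to 12.89 in control retinas. With this mean as a covariate the Dlg4 change was -0.20 (adjusted p = 0.0268, limma). The mean of 6 cone markers was lower by 0.12, at 9.30 to 9.50 in diabetic retinas, against 9.48 to 9.61 in control retinas, and 1 of the 6 passed the gene test as lower. The mean of 4 horizontal cell markers was lower by 0.07, at 7.03 to 7.12 in diabetic retinas, against 7.11 to 7.18 in control retinas, with 1 of the 4 lower. With the cone mean as a covariate the Dlg4 change was -0.17 (adjusted p = 0.277) and with the horizontal cell mean -0.26 (adjusted p = 0.386). Both covariates nearly part the groups, and with them 2 and 0 of all 24570 genes passed. Whether the make-up of cells has a part in the Dlg4 change was not tested.

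**Figure D2:**
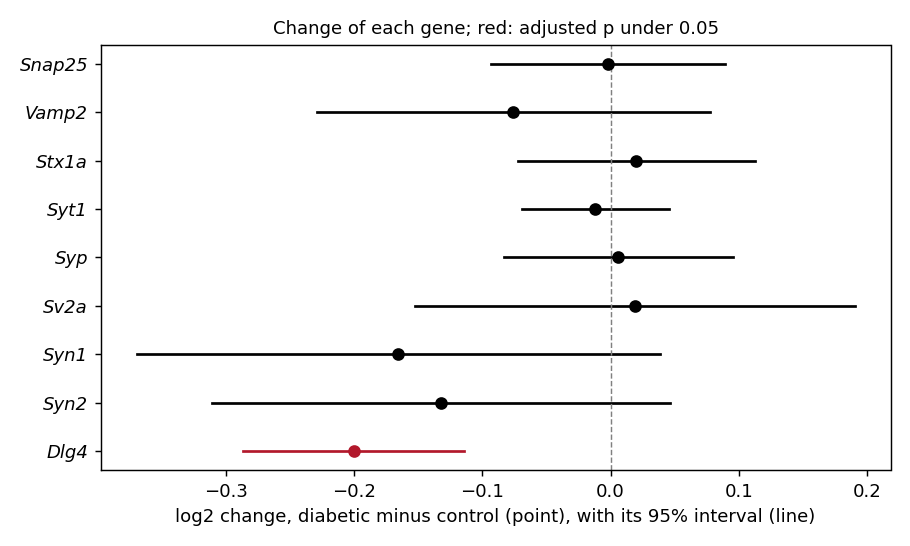
Change of each of the 9 genes, diabetic minus control, on the log2 scale (point), with its 95% interval from limma (line). The interval of Dlg4, -0.29 to -0.11, lies below 0, and those of the other 8 genes include 0.

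The genes closest in sequence family to the 9, 14 in all, were chosen after the results were known. Of these, 0 passed the limma test over all genes, against 3.24% of all genes. An unadjusted p under 0.05 (limma) was reached by 5 of the 14, against 21.0% of all genes. Among the 12285 genes whose mean level reached the median, 3407 did so. The 3 other members of the Dlg4 family had values on both sides of 0. Dlg2, encoding PSD-93, had 9.69 ± 0.09 in diabetic and 9.83 ± 0.05 in control retinas (SD, n = 6 each; change -0.14 ± 0.04 SE; adjusted p = 0.0857, limma). Dlg1, encoding SAP97, had 10.19 ± 0.03 in diabetic and 10.12 ± 0.03 in control retinas (change 0.06 ± 0.02; adjusted p = 0.0749). Dlg3, encoding SAP102, differed by -0.06 ± 0.05 (adjusted p = 0.538). Synaptoporin (Synpr), the relative of synaptophysin, had 9.28 ± 0.05 in diabetic and 9.48 ± 0.16 in control retinas (change -0.21 ± 0.06; adjusted p = 0.0959). Sv2b, an SV2 form of photoreceptor terminals, had 11.57 ± 0.04 in diabetic and 11.67 ± 0.06 in control retinas (change -0.10 ± 0.03; adjusted p = 0.0930), whereas Sv2c differed by 0.13 ± 0.08 (adjusted p = 0.364).

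For the SNAREs, the ribbon synapse syntaxin gene Stx3 differed by -0.01 ± 0.02 (adjusted p = 0.880), and Stx2 by -0.09 ± 0.06 (adjusted p = 0.429). The vesicle SNARE gene Vamp1 differed by -0.02 ± 0.06 (adjusted p = 0.907) and Vamp3 by 0.06 ± 0.08 (adjusted p = 0.713). Syt2, the closest relative of Syt1, differed by -0.07 ± 0.06 (adjusted p = 0.541). Snap23, the form of Snap25 found outside neurons, differed by -0.11 ± 0.05 (adjusted p = 0.210), and Snap47 by -0.01 ± 0.05 (adjusted p = 0.945). Syn3, the remaining synapsin gene, differed by -0.11 ± 0.06 (adjusted p = 0.322), so all 3 synapsin genes had values below 0 and none passed.

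The 9 genes differed in how much they varied between animals of the same group. The within-group SD of Syn1 was 0.17, above that of 92.7% of the 1000 genes nearest to it in level, whose median SD was 0.10. Sv2a (0.15, above 91.7% of its neighbours), Vamp2 (0.13, above 89.7%) and Syn2 (0.15, above 85.3%) were alike in this. Dlg4 had an SD of 0.07, above 39.2% of its neighbours, and Syt1 one of 0.05, above 9.9%. Thus the change of Syn1, -0.17, was close to that of Dlg4, -0.20, but lay within the spread between animals.

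Part of this variation was shared. Over the 12 arrays, deviations from the group means correlated at r = 0.79 between Syn1 and Syn2 (0.79 by Spearman's rank correlation), with 0.81 within diabetic and 0.88 within control retinas. Without the 2 arrays farthest from the Syn1 median, r was 0.74. Syp and Syn1 followed with r = 0.74 (0.73 by rank), at 0.43 within diabetic and 0.90 within control retinas, and 0.68 without the 2 arrays farthest from the Syp median. At the other end, Dlg4 went against Snap25, with r = -0.75 (-0.79 by rank), at -0.92 within diabetic and -0.53 within control retinas. Snap25 had only 3 distinct values among the diabetic arrays. Of these arrays, replicate 5 was lowest in Snap25 (12.91) and highest in Dlg4 (10.76). Without diabetic replicate 5 and control replicate 1, the 2 arrays farthest from the Snap25 median, r was -0.77. Sv2a and Dlg4 also deviated in opposite ways (r = -0.61, and -0.62 by rank). Over all 36 pairs the median r was 0.03, and 20 pairs lay above 0, so the 9 genes did not vary as 1 block. These are descriptions over arrays that share a normalization, in which a shift of some genes moves the places of others, and no p is given.

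**Figure D3:**
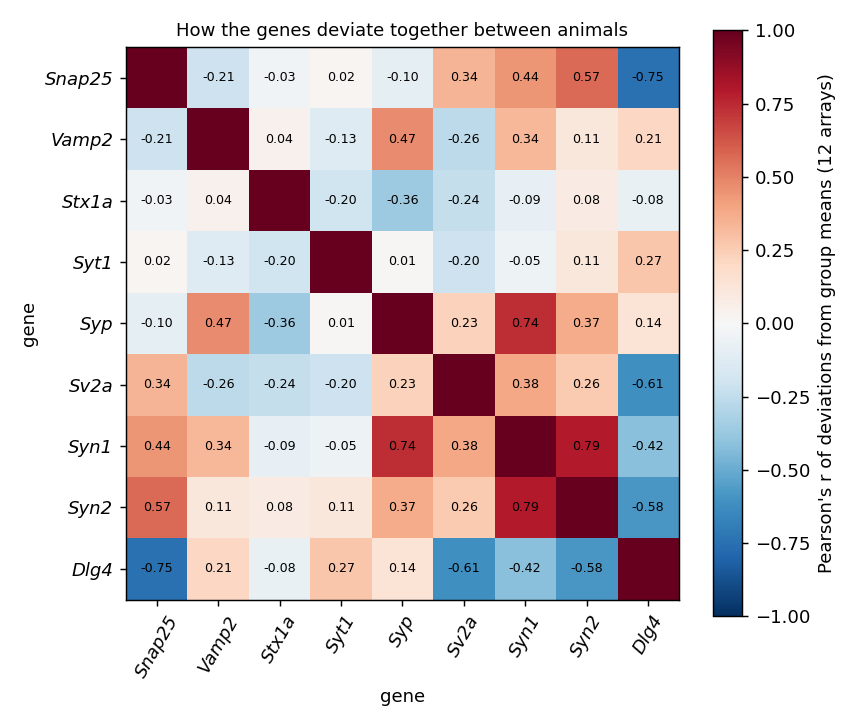
Pearson's r between the deviations of each pair of genes from their group means over 12 arrays, from -1 (blue) to 1 (red). Syn1 with Syn2 (0.79) and Syp with Syn1 (0.74) are highest, and Dlg4 with Snap25 (-0.75) is lowest.

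**Figure D4:**
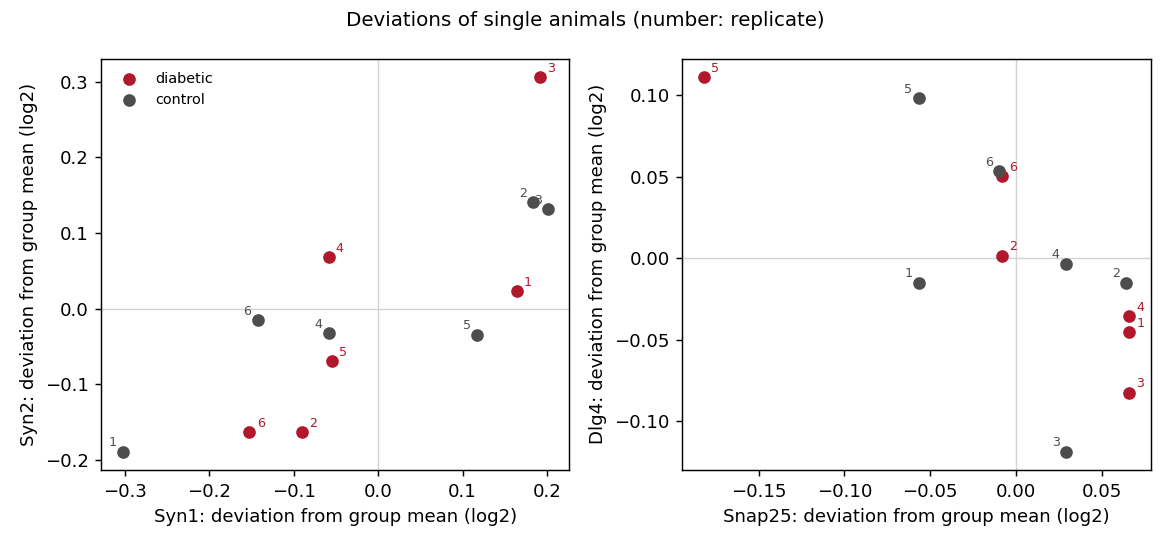
Deviation of each array from its group mean, on the log2 scale, for Syn2 against Syn1 (left) and Dlg4 against Snap25 (right), with diabetic arrays in red, control arrays in grey and replicate numbers beside the points. The synapsins lie along a rising line, with diabetic replicate 3 highest and control replicate 1 lowest, and Dlg4 tends to be low where Snap25 is high.

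Genes whose deviations were most like the mean standardised deviation of the 9 genes were sought among 12276 other genes with a mean at or above the median level. These are the top of a long ranking over 12 arrays, and how high r would be there by chance was not tested. The nearest was Rab3a (r = 0.93 over 12 arrays), the GTPase of synaptic vesicles, followed by Ly6e (0.91), Hapln4 (0.90), a link protein of perineuronal nets, Fbxl17 (0.89) and Kcnc1 (0.89), a potassium channel of fast-spiking neurons. Hapln4 was dim, with means of 5.81 in diabetic and 5.91 in control retinas. Rab3a correlated at 0.81 with Syn1, 0.81 with Syn2, 0.55 with Syp, 0.54 with Snap25 and 0.37 with Sv2a. With Vamp2, Syt1 and Stx1a it correlated at 0.30, 0.18 and 0.08, and with Dlg4 at -0.40. Likeness to the mean is thus not likeness to each of the 9 genes. Between the groups Rab3a had 10.62 ± 0.10 in diabetic and 10.72 ± 0.09 in control retinas (SD, n = 6 each), a change of -0.10 ± 0.05 (SE) that did not pass (adjusted p = 0.278, limma). None of the other 4 passed either.

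Of 146 other genes of the synapse in 6 lists, 9 passed the test, 6 lower and 3 higher in diabetic retinas. This is 6.16% of these genes, against 5.13% of those genes whose mean level reached the median (2.74% lower, 2.39% higher), which 136 of the 146 also did, and 3.24% of all genes. The share is near the background, and the lists are not set apart by it. The median change of the 146 genes was -0.01, with 89 of 146 below 0. Below 0 were also 12740 of all 24570 genes and 6141 of the 12285 whose mean level reached the median. An unadjusted p under 0.05 (limma) was reached by 34 of the 146. It was reached by 21.0% of all genes and by 3407 of those 12285 genes.

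Among 29 other proteins of the vesicle, 2 fell and 0 rose past the test, with a median change of -0.06. Syt9, a calcium sensor of the synaptotagmin family, had 8.47, a median of 8.54 and 8.58 in diabetic retinas, against 8.66, 8.75 and 8.83 in control retinas, with no overlap. It fell by 0.21 ± 0.03 (adjusted p = 0.0104). Syngr2, a synaptogyrin found mostly outside neurons, fell by 0.22 ± 0.05 (adjusted p = 0.0484). Among 31 other SNAREs and regulators of fusion, Napa was the 1 gene that passed. It encodes alpha-SNAP, which takes spent SNARE complexes apart together with NSF. Its diabetic values, 9.43 to 9.61 with a median of 9.54, lay below all control values, 9.73 to 9.95 with a median of 9.80, and it fell by 0.27 ± 0.04 (adjusted p = 0.0104). Cadps2, which primes dense-core vesicles, was next in this list, at 0.07 ± 0.02 (adjusted p = 0.0637).

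Of 16 subunits of the proton pump that acidifies vesicles for transmitter uptake, 1 passed. Atp6v1h fell by 0.12 ± 0.03 (adjusted p = 0.0498), and Atp6v0b differed by -0.15 ± 0.04 (adjusted p = 0.0678). Of 24 genes listed for vesicle endocytosis, clathrin light chain A (Clta) fell by 0.26 ± 0.05 (adjusted p = 0.0324). Syndig1, known as a partner of AMPA receptors although it stood in this list, differed by -0.20 ± 0.06 (adjusted p = 0.0938).

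Of 23 genes of the active zone and its calcium channels, 1 fell and 1 rose. Lin7a, an adaptor that binds CASK, fell by 0.14 ± 0.03 (adjusted p = 0.0240), with 10.10 to 10.19 in diabetic retinas, against 10.22 to 10.37 in control retinas. Ppfia1, encoding liprin-alpha-1, rose by 0.27 ± 0.07 (adjusted p = 0.0480). Of 23 genes of postsynaptic scaffolds and adhesion, the group that Dlg4 belongs to in the brain, 2 rose and 0 fell. Gephyrin (Gphn), the scaffold of inhibitory synapses, rose by 0.14 ± 0.03 (adjusted p = 0.0351), and neuroligin 1 (Nlgn1), an adhesion protein of excitatory synapses that binds PSD-95, rose by 0.24 ± 0.06 (adjusted p = 0.0475).

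Napa, Syt9 and Lin7a passed in each of the 12 fits that left out 1 array. Clta and Gphn passed in 4 of the 12, Syngr2 in 3, Atp6v1h and Ppfia1 in 1 and Nlgn1 in 0. The count of 9 was 3 without control replicate 2, control 3, diabetic 3 or diabetic 4, in fits that called 393, 395, 339 and 325 of all genes, against 797 with every array. It was 4 without control 1, diabetic 5 or diabetic 6 (464, 546 and 454 of all genes) and 5 without control 6 or diabetic 1 (428 of all genes in each). With the mean of the lens markers as a covariate it was 3, and 469 of all genes passed.

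**Figure D5:**
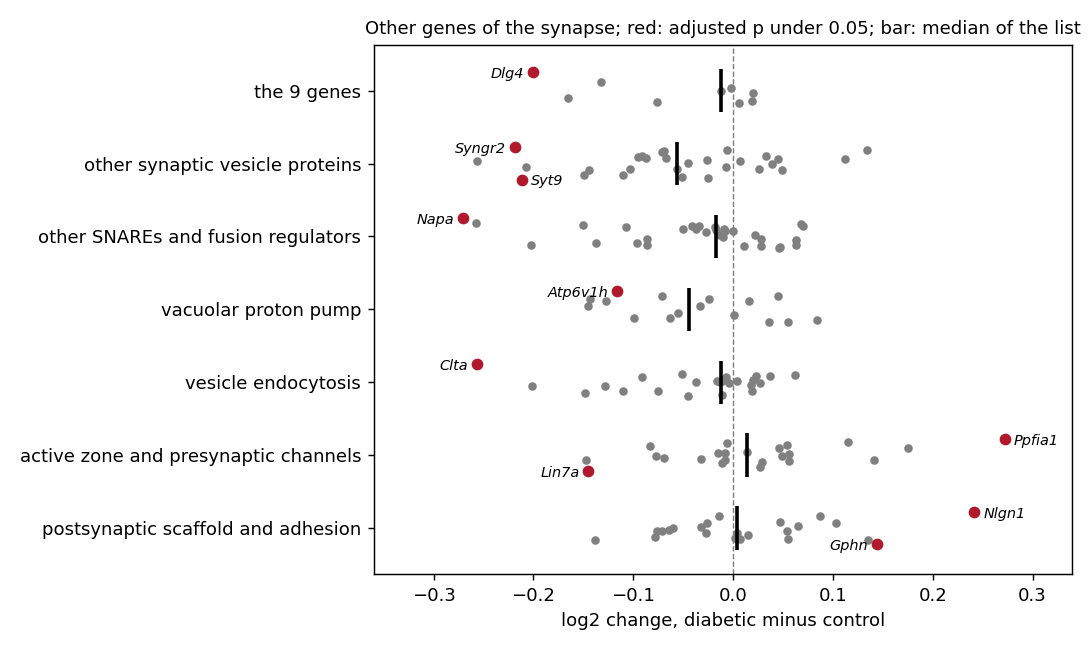
Change of the 9 genes and of the 6 lists of other synaptic genes, diabetic minus control, on the log2 scale (points, 1 a gene; red and named, adjusted p under 0.05; black bar, median of the list). Medians lie between -0.06 for other synaptic vesicle proteins and 0.01 for the active zone, and the red points are Dlg4 and 9 other genes, 3 of them above 0.

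Over the series as a whole, correlations between arrays were 0.993 to 0.998. Means of bipolar, amacrine and Mueller glia markers overlapped between the groups and differed by 0.03, -0.02 and 0.01. That of 7 ganglion cell markers overlapped too but differed by -0.07, as much as that of horizontal cells. It ran from 8.09 to 8.31 in diabetic retinas, against 8.11 to 8.41 in control retinas. Exact permutation tests gave unadjusted p = 0.225 for the ganglion cell mean, 0.0130 for the cone mean and 0.00433 for the horizontal cell mean. Lens and pigment epithelium markers varied between arrays. The lens mean ran from 5.88 to 7.74 in diabetic retinas, highest in replicate 6, against 6.01 to 6.89 in control retinas, and Cryaa, a lens crystallin gene, from 6.30 to 11.73 in diabetic retinas, against 6.92 to 10.02 in control retinas. With the lens mean as a covariate Dlg4 had a change of -0.20 (adjusted p = 0.0466), and with that of the pigment epithelium -0.20 (adjusted p = 0.0324). Myelin markers of the brain and optic nerve, 5 genes, had means of 5.83 to 5.87 in diabetic retinas, against 5.84 to 5.98 in control retinas. The difference was -0.05 (exact permutation test, unadjusted p = 0.0303). These values lie near the array median, and the part of the myelin markers in these results was not tested. The mean of 2 blood markers was dim, at 5.22 to 5.31 in diabetic retinas, against 5.24 to 5.30 in control retinas.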

How the data were processed

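RNA of 12 whole retinas was measured on 12 arrays. The deposited table holds log2 values made with RMA, per the submitters' processing notes; the array, the probe sets and the version are not given in the sources used here. Of its 24973 rows, 24015 were named by the platform annotation and 559 by the RefSeq table of GRCm38.p6, and 24570 genes remained after the highest row of each of 4 repeated symbols was kept. All arrays held the same sorted values, from 5.07 to 14.10, so a shift of most genes 1 way would not be visible. Changes, diabetic minus control, were tested with limma 3.58.1 in R 4.3.3 (lmFit, eBayes, two-sided, Benjamini-Hochberg over all 24570 genes, no filter), and the procedure was tested on simulated data. The 9 genes and the lists were chosen with earlier results of these data known. Named are the 9 genes, the genes of each list that passed or, up to 2, had the smallest p, and the 5 nearest in pattern; relatives of the 9 were added later. Of the listed genes, Ap2m1 and Hba-a1 are not analysed here, and 2 more genes are not reported here. Same-numbered replicates were not paired: their deviations correlated at -0.16 to 0.17, with 1 of 6 pairs over 0.1. Alternatives were variance models, array weights, a filter, unnamed rows, a block, covariates, thresholds and each array left out. The number of arrays limits the precision.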

Additional observations from a re-analysis of the deposited data

Results flagged for a closer look

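Of 42 groups of 6 arrays, 2 for each of the 9 genes and of 12 other named synaptic genes, 7 held an outlying array, whose gap to its nearest neighbour divided by the range of the group exceeded Dixon's 95% critical value of 0.625. Chance gives about 1 in 20. In diabetic retinas these were Snap25 (ratio 0.701; replicate 5 at 12.91, others 13.08 to 13.16), Atp6v1h (0.630; replicate 2 at 8.29, others 8.35 to 8.38) and Gphn (0.722; replicate 1 at 10.37, others 10.45 to 10.47). In control retinas they were Vamp2 (0.809; replicate 5 at 10.75, others 10.35 to 10.42), Stx1a (0.707; replicate 4 at 5.62, others 5.77 to 5.84), Napa (0.664; replicate 2 at 9.95, others 9.73 to 9.80) and Syndig1 (0.708; replicate 2 at 6.50, others 6.11 to 6.22). Dlg4 had no such array in either group.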

How the results depend on the processing

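The change of Dlg4 kept its direction in all 25 alternatives and passed under the variance models, array weights, the filter on dim genes, unnamed rows, the threshold of 0.1 and the lens, pigment epithelium and rod covariates. With the cone or the horizontal cell mean as a covariate (chosen, like the rod mean, after the data were seen) 0 of the 9 genes and 0 of the 146 other synaptic genes passed; these means nearly part the groups, and 2 and 0 of all genes passed. The call of Dlg4 was lost in 4 of the 12 fits without 1 array. Leaving out 1 array gave 0 to 1 of the 9 genes, 3 to 7 of the 146 and 325 to 835 of all genes, against 797 with every array. The 146 genes gave 5 calls with robust eBayes (682 of all genes), 3 with the lens mean (469) and 19 at a threshold of 0.1, which called 8.01% of all genes. The replicate block gave 1 of the 9 genes (Dlg4, -0.20, adjusted p = 0.0284) and 6 of the 146 (506 of all genes), where the labels give no shared origin for the numbers. Some changes that had not passed turned sign: Snap25 to 0.0032 with array weights and 0.0033 with the rod mean, Sv2a to -0.012 with the pigment epithelium mean and -0.18 with the cone mean, Syp to -0.074 and Syt1 to 0.0063 with the cone mean, and Syn1 to 0.031 and Syn2 to 0.039 with the horizontal cell mean, against -0.17 and -0.13 without a covariate. By the difference of medians, Snap25 was at 0.018, Stx1a at -0.031 and Syt1 at 0.0098. Without single arrays Syp ran from -0.015 to 0.029, Snap25 from -0.015 to 0.035, Stx1a from -0.013 to 0.033, Syt1 from -0.025 to 0.0034 and Sv2a from -0.016 to 0.077. None of these passed in any alternative, and the cause of each turn was not tested. Dim values such as those of Stx1a limit what can be seen.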
